A study of Homo sapiens with 6 samples.

Results

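PRDX1, SOD1 and CAT encode a peroxiredoxin, a superoxide dismutase and catalase, 3 enzymes that remove superoxide and hydrogen peroxide. They were found by gene name in a deposited comparison of SETD8 knockout with control Kasumi-1 cells, and they are 3 of the 7983 genes in it. They were chosen by their normalized read counts, which were higher in the knockout libraries of this comparison, so their own difference is described here without a test. Kasumi-1 is a human acute myeloid leukaemia cell line with the t(8;21) translocation, and both groups carry it. The knockout group holds 3 libraries titled sgSETD8, made after CRISPR/Cas9 disruption of SETD8, now named KMT5A, an enzyme that methylates lysine on histone H4. The control group holds 3 libraries titled sgNT with a genotype given as WT. Nothing in the labels tells whether libraries 1 to 3 of a group came from separate cultures, clones or guides. The p-values therefore rest on the spread among 3 libraries, which may be technical. Each library is RNA sequencing of poly-T selected RNA, and values are normalized read counts, in which the authors scaled the reads of a library by its size factor.

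Superoxide leaks from the respiratory chain and is made on purpose by the NADPH oxidase of myeloid cells. Superoxide dismutases turn it into hydrogen peroxide. SOD1, with copper and zinc, works in the cytosol and in the space between the mitochondrial membranes. Catalase breaks down hydrogen peroxide in the peroxisome without a reducing partner, while PRDX1 reduces it in the cytosol with a cysteine that thioredoxin restores. Thioredoxin and glutathione are in turn kept reduced with NADPH.

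Reads in the listed genes ran from 10966349 to 12557974 per library. Every listed gene had an unadjusted p below 0.05 in the authors' deposited table. Genes outside the table were not analysed here, and nothing can be said of their change. KMT5A had 880, 933 and 939 normalized read counts in knockout libraries 1 to 3, against 1191, 1212 and 1255 in control libraries 1 to 3, so the groups did not overlap (log2 fold change -0.41, SE 0.07, limma-trend adjusted p = 5.65e-05). A CRISPR deletion or insertion need not lower the mRNA of its gene. All 7 myeloid blast markers looked for were in the table, and they went both ways, with 3 called higher, 2 lower and 2 not called. CD34 was not called, at 7818 ± 85.1 in knockout and 7153 ± 283 in control cells (SD, n = 3 each, as for every mean below; log2 fold change 0.13, limma-trend adjusted p = 0.0695). CD33 rose to 990 ± 35.3 in knockout, against 435 ± 53.6 in control cells (1.19, adjusted p = 7.82e-10), and ANPEP to 268 ± 13.6 in knockout, against 106 ± 17.5 in control cells (1.34, adjusted p = 3.59e-07). MPO, made in myeloid granules, fell to 1541 ± 27.3 in knockout, against 12254 ± 373 in control cells (-2.99, adjusted p = 6.23e-21). Of 12 erythroid markers, TFRC alone was in the table, and no haemoglobin gene was. Of 10 lymphoid and stromal markers 4 were, among them CD3D, CD79A and PDGFRB. CD3D had 1400 ± 133 in knockout and 1040 ± 22.7 in control cells. CD79A had 188 ± 23.1 in knockout and 119 ± 7.03 in control cells, and PDGFRB 30.9 ± 5.86 in knockout and 5.60 ± 3.44 in control cells. All 4 were higher in knockout cells (limma-trend adjusted p at most 0.00239), and the part of either group of markers in the results below was not tested.

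PRDX1 (ENSG00000117450) lies on the minus strand of chromosome 1, from 45511036 to 45523047 on hg38. It had 4315, 3772 and 3811 normalized read counts in knockout libraries 1 to 3, against 1675, 1802 and 1633 in control libraries 1 to 3. The lowest knockout library was 2.09-fold above the highest control library. The means were 3966 ± 303 in knockout and 1703 ± 87.7 in control cells, a log2 fold change of 1.22 (SE 0.06) on the log2(value + 1) scale, or 2.33-fold. PRDX1 is an abundant typical 2-Cys peroxiredoxin that also acts as a chaperone when overoxidized. In bulk RNA, more cells with a high level and more RNA per cell cannot be told apart.

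SOD1 (ENSG00000142168) lies on the plus strand of chromosome 21, from 31659622 to 31668931. It had 5987, 6336 and 5382 normalized read counts in knockout libraries 1 to 3, against 2678, 2727 and 2729 in control libraries 1 to 3. The control libraries were nearly equal, and the lowest knockout library was 1.97-fold above the highest of them. The means were 5901 ± 483 in knockout and 2712 ± 28.7 in control cells, a log2 fold change of 1.12 (SE 0.06), or 2.17-fold. The coefficient of variation was 8.18% among knockout and 1.06% among control libraries.

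CAT (ENSG00000121691) lies on the plus strand of chromosome 11, from 34438925 to 34472062. It had 6171, 5510 and 5512 normalized read counts in knockout libraries 1 to 3, against 3352, 3621 and 3564 in control libraries 1 to 3. The groups did not overlap, and the smallest distance between them was 1.52-fold, less than for PRDX1 and SOD1. The means were 5731 ± 381 in knockout and 3512 ± 142 in control cells, a log2 fold change of 0.71 (SE 0.06), or 1.63-fold. Library 1 was the highest knockout library for PRDX1 and CAT, and library 2 was the highest for SOD1. The authors' deposited table gave log2 fold changes of 1.22 for PRDX1, 1.12 for SOD1 and 0.71 for CAT.

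**Figure D1:**
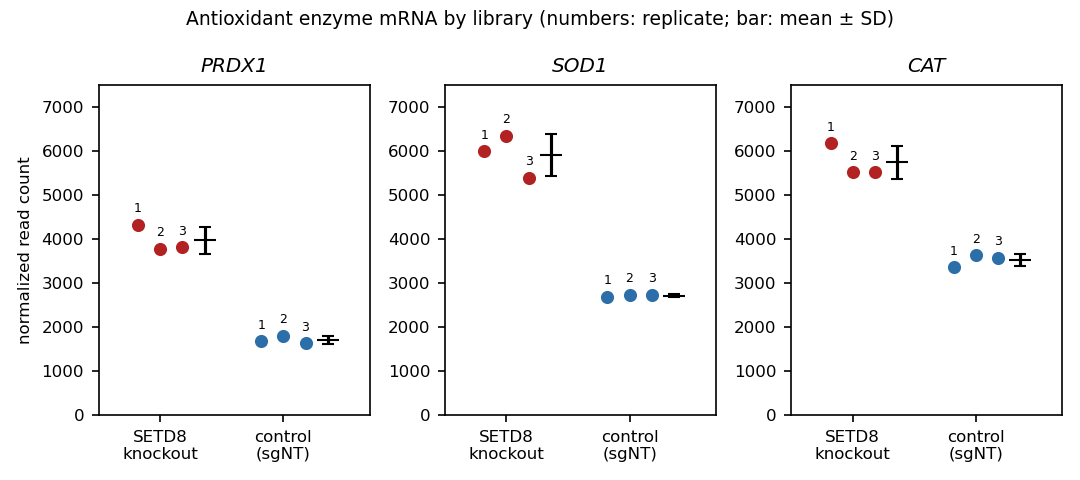
Normalized read count (y axis, from 0) of PRDX1, SOD1 and CAT in each SETD8 knockout and control library, with the replicate number above each point and the mean ± SD at its right. In all 3 genes the 3 knockout points lie above the 3 control points, with a gap that is narrowest for CAT, at 1.52-fold between the nearest libraries.

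Groups that do not overlap are common in this table, because its genes were selected for a difference between these libraries. Of 7516 genes with a mean of at least 10, 48% were higher in every knockout library than in any control library, 47.4% were lower in every one, and the 2 together made up 95.4%. By the same fit, 94.1% of the 7516 tested genes were called at a limma-trend adjusted p below 0.05, 47.3% higher and 46.7% lower. The log2 fold changes of PRDX1, SOD1 and CAT exceeded those of 93.9%, 93.0% and 84.8% of tested genes. All 3 are therefore in the upper part of a distribution that contains changes in both directions, and the choice of the genes put them there.

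The order of the levels can be read only per length. Per kilobase of gene length as given by the authors, SOD1 had 2923 ± 239 normalized read counts in knockout cells, PRDX1 2606 ± 199 and CAT 1596 ± 106. In control cells SOD1 had 1343 ± 14.2, PRDX1 1119 ± 57.6 and CAT 978 ± 39.4 per kilobase. With these lengths, of 2019 bases for SOD1, 1522 for PRDX1 and 3590 for CAT, the order was the same in both groups. The knockout intervals of SOD1 and PRDX1 touched within 1 SD. The longest coding transcripts (GENCODE release 29) are shorter, at 966 bases for SOD1, 1234 for PRDX1 and 2302 for CAT. The order of the levels thus depends on the length used, and levels per transcript length were not computed. Each of the 3 was above at least 94.3% of tested genes per kilobase in control cells and above at least 96.3% in knockout cells. Their values rest on 1639 to 6381 reads per library.

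Few of the reads of these genes could belong to another gene by sequence. Of all 50-base windows in the longest coding transcript (GENCODE release 29), 0 of 917 in SOD1 and 0 of 2253 in CAT occurred in a transcript of another gene. In PRDX1 7 of 1185 did, all in the processed pseudogene PRDX1P1. On the opposite strand, MMACHC, which encodes a protein of vitamin B12 metabolism, has exons over 379 of the 1522 exon bases of PRDX1, or 24.9%. The library kit marks strand, but the sources used here do not give whether the counting used it. Reads of MMACHC could therefore be counted in PRDX1. MMACHC is not in the table and was not analysed here. The antisense gene AP000254.1 lies within SOD1 and overlaps 0 of its exon bases.

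Of the 3 genes, CAT had an entry among the RefSeq promoters used here. Its stretch up to the gene start in the deposited table is shown because the catalase promoter is known as a GC-rich promoter without a TATA box that holds repeated CCAAT boxes, the motif bound by NF-Y. The capitals mark CCAAT on either strand, so that ATTGG is the motif on the minus strand.
CAT promoter, plus strand, GRCh38.p14 (the hg38 build), chr11:34438684-34438924: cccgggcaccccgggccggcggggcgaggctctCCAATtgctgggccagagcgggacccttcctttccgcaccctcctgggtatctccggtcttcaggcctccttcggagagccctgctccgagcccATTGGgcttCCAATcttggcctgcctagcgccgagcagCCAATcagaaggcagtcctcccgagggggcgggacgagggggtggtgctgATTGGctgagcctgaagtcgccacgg
The motif occurred 5 times, at 208, 114, 105, 76 and 26 bases before the gene start. At least 1 match to CCAAT was present in 35.7% of the 27305 promoter windows of 300 bases in the same source, and 5 or more in 0.403% of them. The GC box GGGCGG occurred once, 50 bases before the start, and 44.6% of windows held it. The letters TATAAA, held by 12.0% of windows, and the core of the antioxidant response element bound by NRF2, TGACNNNGC, held by 13.6%, did not occur on either strand of the CAT window. The window was 68% G and C, against a median of 58.3%. These matches are letters in a window and were not measured as binding.

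The 3 genes lie on different chromosomes, and each was set against the tested genes whose start was within 5 Mb. Start here means the lower coordinate of a gene, whatever its strand. Around PRDX1, 24 of 41 neighbours were called higher and 16 lower, and the median log2 fold change of all 41 was 0.32. None of the 41 had a log2 fold change above that of PRDX1, while 4 of 82 did with a window of 10 Mb. PRDX1 was chosen for its higher value in knockout, which favours such a rank. The nearest tested coding genes went both ways. TESK2, which encodes a protein kinase, was at 170 ± 50.8 in knockout and 359 ± 19.5 in control cells (log2 fold change -1.12, limma-trend adjusted p = 6.94e-06), and NASP, a histone chaperone, at 5445 ± 74.7 in knockout and 4510 ± 74.1 in control cells (0.27, adjusted p = 0.000226). TOE1 and GPBP1L1 had log2 fold changes of 0.47 and -0.20.

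SOD1 stood among genes that were mostly higher. Of its 28 neighbours 23 were called higher and 3 lower, and their median log2 fold change was 0.49, while 4 of the 28 had a larger value than SOD1. On chromosome 21 as a whole, 82.1% of the other 84 tested genes had a log2 fold change above 0, with a median of 0.43. The shares were 59.8% on chromosome 1 and 61.5% on chromosome 11, with medians of 0.27 and 0.29. Over all tested genes, 3786 of 7516 were above 0, with a median of 0.14. SCAF4, a regulator of transcript ends, lies on the minus strand, and its lower coordinate is 11.4 kb above that of SOD1. It had 1583 ± 97.7 in knockout and 1419 ± 34.2 in control cells and was not called (log2 fold change 0.16, limma-trend adjusted p = 0.0765). TIAM1, on the other side, had 2.97 ± 1.72 in knockout and 24.6 ± 6.11 in control cells, with a log2 fold change of -2.78. MIS18A and BACH1, the next tested coding genes outward, with starts 609 and 2466 kb away, were at 0.23 and 0.20. The call of BACH1, a repressor of haem oxygenase and other NRF2 targets, ended when knockout library 2 or 3 or control library 1 or 2 was left out (adjusted p = 0.124, 0.155, 0.105 and 0.127).

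Around CAT, 10 of 20 neighbours were called higher and 6 lower, with a median of 0.25, and 4 of the 20 exceeded CAT. ABTB2 and FBXO3 on one side had log2 fold changes of 0.50 and 0.27. PDHX, a subunit of the pyruvate dehydrogenase complex, and CD44, an adhesion receptor of leukaemic blasts, on the other side had -0.22 and -0.28. Taken off the median of its neighbours, the log2 fold change was 0.90 for PRDX1, 0.63 for SOD1 and 0.45 for CAT. With a window of 10 Mb it was 0.71 for CAT, above the 0.65 of SOD1, so the order of SOD1 and CAT depends on the window.

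**Figure D2:**
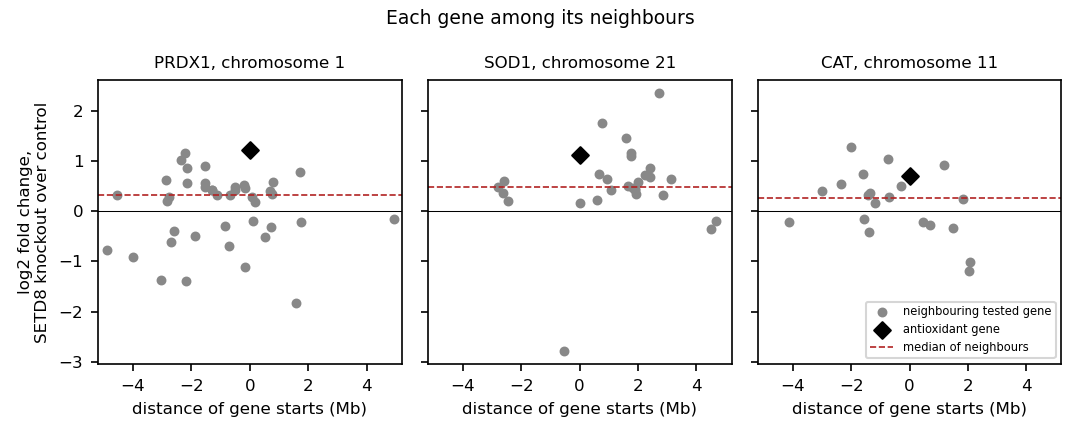
Log2 fold change, SETD8 knockout over control, of the tested genes within 5 Mb of PRDX1, SOD1 and CAT, against the distance of gene starts (lower coordinates) in Mb. Diamonds are the antioxidant genes and dashed lines the median of the neighbours. The medians are 0.32, 0.49 and 0.25. PRDX1, chosen for its higher value in knockout, lies above all 41 of its neighbours in this window.

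Short genes tended to be higher in this table, and PRDX1 and SOD1 are short. PRDX1, of 1522 bases, is among the shortest 754 of the tested genes, whose median log2 fold change was 0.37. SOD1, of 2019 bases, is among the 750 genes of 1912 to 2780 bases, with a median of 0.33, and CAT, of 3590 bases, among the 752 of 3536 to 4254 bases, with a median of 0.21. The 752 longest genes had a median of -0.29. The part of length and of position in the values of the 3 genes was not tested.

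**Figure D3:**
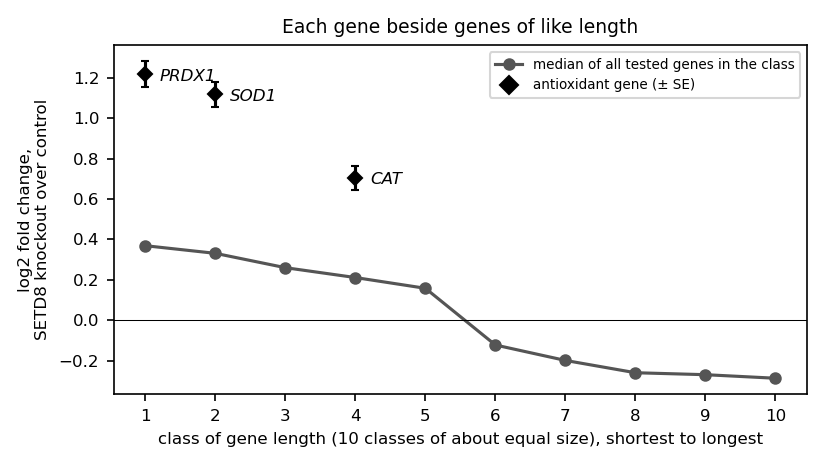
Median log2 fold change, SETD8 knockout over control, of all tested genes in 10 classes of gene length of about equal size (circles, shortest at the left), with PRDX1, SOD1 and CAT (diamonds, ± SE) placed in their own class. The medians run down to -0.29 in the longest class. Each diamond lies above the circle of its class, a place favoured by the choice of genes higher in knockout.

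The genes most like each of the 3 were those with the smallest root mean square difference in log2(value + 1) over the 6 libraries, after each gene's mean was subtracted, among the 6094 other coding genes whose mean was 100 or more. Nearest to PRDX1 were BST1, an ectoenzyme of myeloid and stromal cells, at a difference of 0.041, CD74, the invariant chain of MHC class II, at 0.047, and HSPE1, the mitochondrial co-chaperonin, at 0.048. BST1 had 607 ± 53.0 normalized read counts in knockout and 257 ± 17.0 in control cells. Nearest to SOD1 were LRPAP1, a chaperone of lipoprotein receptors, at 0.040, LY6E, a surface protein, at 0.041, and ANXA2, an annexin, at 0.047. Nearest to CAT were RAB11A, a GTPase of recycling endosomes, BIK, an inducer of apoptosis, and SUMO3, a small modifier of proteins, at 0.029, 0.029 and 0.031. Of the 50-base windows of HSPE1 and ANXA2, 27.2% and 35.3% occur in other genes, so the counts of both are uncertain. Among the 3 enzymes themselves, SOD1 was the gene ranked 32 in likeness to PRDX1, at 0.11, and CAT ranked 438, at 0.26. In likeness to SOD1, PRDX1 ranked 68 and CAT 456. In likeness to CAT, SOD1 ranked 2003 and PRDX1 2596 among the 6094 genes.

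The wider antioxidant and peroxide pathway was read from 11 lists of whole families, 178 genes without PRDX1, SOD1 and CAT. Of these 92 were in the table and 91 tested. The 91 include 14 genes of enzymes that make superoxide or hydrogen peroxide, and 11 regulators and partners of NRF2. The counts are therefore not of antioxidant genes alone. Among the 91, 56 were called higher and 31 lower, against 47.3% and 46.7% of all tested genes, and the median log2 fold change was 0.34, against 0.14 over all tested genes.

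**Figure D4:**
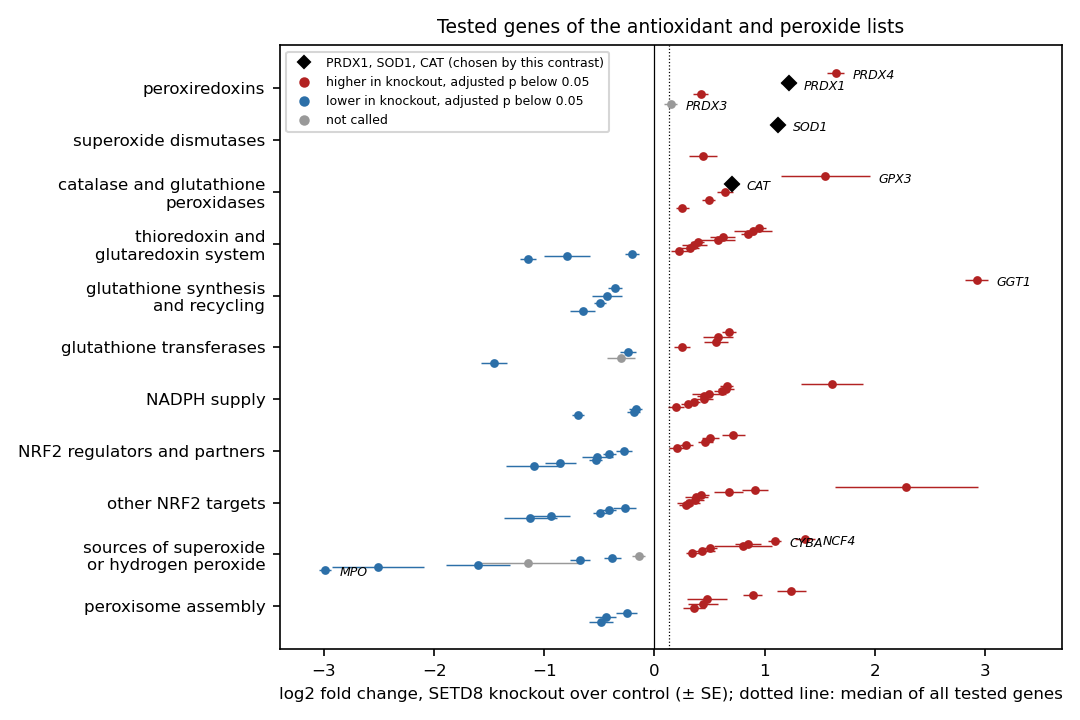
Log2 fold change, SETD8 knockout over control (± SE), of each tested gene of the 11 lists, in red where called higher, blue where called lower and grey where not called, with PRDX1, SOD1 and CAT as black diamonds and the median of all tested genes, 0.14, as a dotted line. The 3 lists at the top hold no blue point, and the glutathione synthesis list holds 4 blue points and 1 red.

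Among the other peroxiredoxins and sulfiredoxin, 3 of 6 genes were in the table, 2 called higher and 0 lower. PRDX4, the peroxiredoxin of the endoplasmic reticulum, on the X chromosome, had 2481, 2551 and 2114 normalized read counts in knockout libraries, against 702, 779 and 793 in control libraries. The log2 fold change of PRDX4 was 1.65 (SE 0.08), larger than that of PRDX1, and passed the test (limma-trend adjusted p = 1.33e-13). PRDX6, a 1-Cys peroxiredoxin that uses glutathione, had 4020 ± 419 in knockout and 2996 ± 162 in control cells (0.42, adjusted p = 2.50e-05). PRDX3, the mitochondrial peroxiredoxin, had 2984, 2718 and 2525 in knockout libraries, against 2488, 2491 and 2438 in control libraries. These groups lay close together and PRDX3 was not called (0.15, SE 0.06, adjusted p = 0.0826), although it passed when knockout library 3 was left out (0.0135). PRDX2, PRDX5 and SRXN1 are outside the table.

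Beside SOD1, its copper chaperone CCS was the one gene of 3 in the table. CCS had 457, 390 and 483 normalized read counts in knockout libraries, against 343, 381 and 262 in control libraries, groups that lie close (log2 fold change 0.44, SE 0.13, limma-trend adjusted p = 0.00897). When control library 3 was left out, the log2 fold change of CCS was 0.29 and the call ended (adjusted p = 0.101). SOD2, the mitochondrial dismutase, and SOD3, the extracellular one, are outside the table.

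Beside CAT, 4 of 8 glutathione peroxidases were in the table, and all 4 rose. GPX1, the main cytosolic one, had 12875, 12527 and 11012 normalized read counts in knockout libraries, against 8559, 8513 and 8744 in control libraries (log2 fold change 0.49, SE 0.06, limma-trend adjusted p = 6.51e-07). It was the most abundant gene of these families, and 21.5% of its 50-base windows occur in the pseudogenes GPX1P1 and GPX1P2. GPX7, an enzyme of the endoplasmic reticulum, had 1435 ± 136 in knockout and 919 ± 44.8 in control cells (0.64, adjusted p = 4.61e-07). GPX4, which reduces lipid peroxides and guards against ferroptosis, had 4719 ± 409 in knockout and 3947 ± 144 in control cells (0.25, adjusted p = 0.00230). GPX3, a secreted form, was low, at 47.2 ± 18.5 in knockout and 16.2 ± 9.01 in control cells (1.55, adjusted p = 0.00386).

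In the thioredoxin and glutaredoxin system, 9 of 12 tested genes were higher and 3 lower, and their log2 fold changes had a median of 0.38. The 9 include TXNIP, which binds and inhibits thioredoxin, so the count is not of reducing enzymes alone. TXNIP, singled out after its values were seen, had 2472 ± 101 in knockout and 1373 ± 56.5 in control cells (log2 fold change 0.85, limma-trend adjusted p = 2.82e-10). GLRX5, a mitochondrial glutaredoxin of iron-sulfur cluster assembly, rose to 1862 ± 37.6 in knockout, against 965 ± 30.1 in control cells (0.95, limma-trend adjusted p = 8.88e-11). TXNDC17, a thioredoxin-like protein, was at 297 ± 69.4 in knockout and 157 ± 28.3 in control cells (0.90). MSRB3, a methionine sulfoxide reductase, fell to 746 ± 57.4 in knockout, against 1648 ± 2.44 in control cells (-1.14, adjusted p = 2.36e-11). TXN, the thioredoxin that reduces PRDX1, was singled out after its values were seen. It had 2584 ± 166 in knockout and 2972 ± 106 in control cells (-0.20, adjusted p = 0.0108), and its call ended without knockout library 3 (0.0564) or control library 3 (0.0725).

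In glutathione synthesis and recycling, 1 of 5 tested genes was called higher and 4 lower, and the median was -0.43. SLC7A11, the transport chain of the cystine importer, fell to 534 ± 46.3 in knockout, against 847 ± 173 in control cells (log2 fold change -0.65, limma-trend adjusted p = 6.28e-05). SLC3A2, its partner chain, fell to 4240 ± 113 in knockout, against 5987 ± 155 in control cells (-0.50, adjusted p = 1.03e-07). The higher gene was GGT1, which breaks glutathione down at the cell surface rather than making it, at 1100 ± 48.0 in knockout and 144 ± 14.9 in control cells (2.92, adjusted p = 2.23e-15). Of its 50-base windows 48.9% occur in relatives such as GGT3P and GGT2, so its count is uncertain. GCLC, GCLM and GSR, the enzymes for the first step and for recycling, are outside the table.

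Glutathione transferases went both ways, with 4 of 7 higher and 2 lower and a median of 0.25. GSTP1 rose to 8228 ± 705 in knockout, against 5130 ± 216 in control cells (log2 fold change 0.68, limma-trend adjusted p = 8.52e-09). MGST1, a microsomal transferase, was at 568 ± 97.8 in knockout and 382 ± 76.0 in control cells (0.58), and GSTO2, of the omega class, fell to 161 ± 1.92 in knockout, against 443 ± 6.69 in control cells (-1.45).

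For NADPH supply, 10 of 13 tested genes were higher and 3 lower, with a median of 0.45. TALDO1, the transaldolase of the pentose phosphate pathway, rose to 4657 ± 238 in knockout, against 2953 ± 88.4 in control cells (log2 fold change 0.66, limma-trend adjusted p = 3.98e-09). NADK, the cytosolic kinase that makes NADP from NAD, rose to 1310 ± 39.2 in knockout, against 834 ± 5.45 in control cells (0.65). MTHFD2, a mitochondrial folate enzyme, fell to 4465 ± 292 in knockout, against 7216 ± 271 in control cells (-0.69, adjusted p = 2.31e-09).

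NRF2 is the transcription factor that switches on many antioxidant genes. Among its regulators and partners, 5 of 11 tested genes were higher and 6 lower, with a median of -0.28. The higher genes were MAFK, KEAP1 (log2 fold change 0.29), CUL3 (0.51), RBX1 (0.46) and BACH1 (0.20). The list holds repressors such as BACH1 beside partners, so its counts do not tell whether NRF2 activity changed. MAFK, a small MAF partner, rose to 665 ± 82.2 in knockout, against 403 ± 33.4 in control cells (log2 fold change 0.72, limma-trend adjusted p = 6.45e-06). MAFF, another, was at 63.1 ± 26.5 in knockout and 128 ± 12.6 in control cells (-1.10), and NFE2, the relative of NRF2 in blood cells, at 141 ± 12.4 in knockout and 256 ± 7.46 in control cells (-0.86). The gene of NRF2 itself, NFE2L2, is outside the table. Of NRF2 targets outside the enzyme families 8 of 13 were higher and 5 lower, with a median of 0.31. AKR1B1, an aldose reductase, had 574, 544 and 463 normalized read counts in knockout libraries, against 256, 316 and 266 in control libraries, and rose (log2 fold change 0.91, limma-trend adjusted p = 1.09e-06). SLC48A1, a haem transporter, fell to 88.9 ± 3.85 in knockout, against 171 ± 14.2 in control cells. TRIM16, for which 57.8% of 50-base windows occur in other genes, fell to 47.1 ± 9.94 in knockout, against 104 ± 18.5 in control cells. The core TGACNNNGC was present in 10 of the 44 promoter windows matched to called higher genes of the 11 lists and in 4 of 20 matched to called lower genes.

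Enzymes that make superoxide or hydrogen peroxide went both ways, with 7 of 14 higher and 5 lower and a median of 0.10. The higher genes include subunits of the NADPH oxidase. NCF4, a cytosolic subunit, rose to 1049 ± 67.2 in knockout, against 406 ± 30.6 in control cells (log2 fold change 1.37, limma-trend adjusted p = 3.28e-11). CYBA, the membrane subunit p22phox, was singled out after its values were seen, at 8844, 8181 and 7749 in knockout libraries, against 3819, 3694 and 4110 in control libraries (1.09, adjusted p = 2.35e-12). These groups did not overlap. SMOX, the spermine oxidase, fell to 25.7 ± 2.25 in knockout, against 83.5 ± 28.3 in control cells (-1.60). The largest change in the list was that of MPO, myeloperoxidase, at a log2 fold change of -2.99 as given among the blast markers. It uses hydrogen peroxide to make hypochlorous acid rather than making it.

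Catalase is carried into peroxisomes by the PEX proteins. Of 8 tested genes of peroxisome assembly 5 were higher and 3 lower, with a median of 0.40, and ABCD2 was too low to test. PEX6, an ATPase that recycles the import receptor, rose to 414 ± 43.0 in knockout, against 175 ± 20.9 in control cells (log2 fold change 1.24, limma-trend adjusted p = 7.40e-08).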

How the data were processed

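Polyadenylated RNA of 6 Kasumi-1 libraries was sequenced after a strand-marking library kit, per the labels' protocols. Build hg38, HISAT2 and DESeq2 are named in the submitters' processing notes. The authors deposited, per the file headers, a normalized read count per library (reads divided by a size factor, a signal that is no longer a raw count), a log2 fold change, and p-values with and without adjustment. Dividing by the value of 1 read gave whole numbers within 0.001 for 100% of values, with size factors of 0.959 to 1.07. In knockout 2 and control 3, where a read is worth nearly 1, recovered reads are less certain.

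Genes with a mean of at least 10 (7516, leaving out 467) were tested two-sided, without a block, by limma-trend on log2(value + 1), in limma 3.58.1 under R 4.3.3. This scale understates changes of low genes. Benjamini-Hochberg adjustment ran over 19860 genes, as read from the authors' p-values, and the threshold was 0.05. The test was tested on simulated data. Alternatives were TMM scaling, DESeq2 1.42.0, edgeR 4.0.16, other filters, pseudocounts of 0.5 and 5, a replicate block and leaving out each library. The genes and lists were chosen with earlier results of these data known. Every gene of the 3 enzyme families is named, and from each other list up to 3 called genes, those that changed most in size among genes whose mean reached 50; a few of these and of the marker genes are not reported here. Coordinates of 7974 of 7983 genes equalled GENCODE release 29.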

Additional observations from a re-analysis of the deposited data

How the results depend on the processing

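The log2 fold change of PRDX1 was 1.16 to 1.26 with any 1 library left out and 1.21 to 1.22 under the other alternatives. For SOD1 these ranges were 1.07 to 1.18 and 1.11 to 1.12, and for CAT 0.65 to 0.73 and 0.69 to 0.71. The value of CAT less the median of its neighbours was 0.71 with a window of 10 Mb in place of 5 Mb, since that median was then -0.0060. Of all genes, 6141 to 6517 were called with 1 library left out and 6347 to 7465 otherwise. For the antioxidant genes other than PRDX1, SOD1 and CAT the counts were 76 to 82 and 83 to 89, against 87. With the replicate block 7091 genes were called, against 7070. Deviations of same-numbered libraries correlated at 0.0086, -0.0033 and -0.050, so no pairing was seen. With 3 libraries per group these values cannot tell whether same-numbered libraries shared a culture or a day. Among 103 single genes under 14 alternatives, 58 values lost a call, 14 gained one and 0 changed direction. The table holds genes selected for a difference between these libraries, so shares of called genes say little, and groups of 3 limit precision.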

Other observations

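Genes of haem and iron handling went in both directions. HMOX1, the inducible haem oxygenase, was low, at 18.1 ± 10.1 normalized read counts in knockout and 2.95 ± 1.92 in control cells (SD, n = 3 each; log2 fold change 2.29, limma-trend adjusted p = 0.00728), and its call ended without knockout library 2 (adjusted p = 0.0915). The log2 fold change of HMOX1 depended on the pseudocount, at 1.49 with a pseudocount of 5, and was 2.61 in DESeq2. BLVRA, a biliverdin reductase, rose to 392 ± 35.8 in knockout, against 247 ± 48.6 in control cells. FTL, the ferritin light chain, rose to 13386 ± 1122 in knockout, against 10953 ± 582 in control cells, and FTH1, the heavy chain, fell to 1993 ± 141 in knockout, against 2659 ± 139 in control cells. Of the 50-base windows of FTL and FTH1, 18.3% and 40.4% occur in other genes, so both counts are uncertain. TFRC, the transferrin receptor, fell to 22866 ± 895 in knockout, against 29306 ± 175 in control cells (log2 fold change -0.36, limma-trend adjusted p = 3.30e-05).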
